A study of Sus scrofa with 2 samples.

Results

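The oestrogen receptor gene ESR1, the progesterone receptor gene PGR and 2 genes whose proteins work with such receptors, the coactivator gene NCOA1 and the co-chaperone gene FKBP5, were followed across the cell types of pig endometrium, the inner lining of the uterus. These 4 genes were taken by symbol from 26881 genes in the deposited feature table, and each stood on 1 row, with the identifiers ENSSSCG00025044932 for ESR1, ENSSSCG00025023194 for PGR, ENSSSCG00025051102 for NCOA1 and ENSSSCG00025043250 for FKBP5. The study made 2 libraries by enzyme digestion of endometrium and 10x droplet capture. Its design names 2 Yorkshire sows of 3 years and a similar genetic background, pregnant after artificial insemination, with tissue taken from each horn of the uterus. One sow was at day 13 of gestation, called the receptive period, and the other at day 7, called the period before receptivity. The labels call the libraries endometrium2 and endometrium1 without a day, so they are named library 2 and library 1 here and no stage is assigned to either. The deposited matrix of library 2 carries the abbreviation ER and that of library 1 Pre-ER, without a day or a spelled-out meaning, and groups were not taken from them. With 1 library from 1 sow on each side there was no replicate check and no test, and every interval below covers counting error only.

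ESR1 and PGR encode nuclear receptors that bind their hormone, sit on DNA and recruit coactivators to change transcription. In the endometrium oestrogen acting through ESR1 is known to raise PGR, while continued progesterone is known to lower both receptors in the epithelia, with the stroma and muscle keeping PGR. NCOA1, also called steroid receptor coactivator SRC-1, joins hormone-bound receptors to histone acetyltransferases. FKBP5 is an immunophilin that rides on HSP90 in unliganded receptor complexes, and its transcription is known to be induced by progesterone, androgens and glucocorticoids.

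Library 2 held 12673 cells after filters and library 1 held 8930 cells, from 15093 and 10045 barcodes, with medians of 4335 and 3431 UMIs (distinct captured molecules) per barcode. The libraries shared 48 barcode sequences. Cells were clustered without the 4 genes, and 29 of 32 clusters scored for a class by its marker genes. Of these, cluster 1, a stroma of library 1, was kept apart from its class. Clusters 11, 13 and 18, outside the 29, stayed unnamed. Classes are written below as X-like. In 29 of the 32, more than 90% of cells came from a single library, and most classes therefore consist of different clusters in the 2 libraries. Of 187 marker entries, cell cycle genes included, 120 had a symbol. Those of a class were detected in full in its summed UMIs in each library used, except that 13 of 14 T or NK cell markers were detected in library 1. Such detection does not show that a class is pure, since blood endothelial-like cells of library 1 also held 10 of 10 stromal markers. Levels are given in CPM, the usual scaling of the UMIs of a gene to the UMIs of its whole class. They come from transcript 3′ ends, are not scaled to gene length and are therefore not compared between genes.

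ESR1 was highest in the ciliated, muscle and stromal classes of library 2. Ciliated epithelial-like cells of library 2 reached 875 CPM (95% interval 848 to 903), and 97.9% of 575 cells held at least 1 ESR1 UMI. Smooth muscle or pericyte-like cells had 786 CPM in library 2, against 394 CPM in library 1. Stromal fibroblast-like cells had 766 CPM in library 2 and 171 in library 1. Muscle and stroma of library 2 did not differ beyond their intervals, and both lay below the ciliated cells. With called doublets kept, the ciliated cells of library 2 had 773 CPM and the muscle-like cells 780 CPM, so this order was not kept. Epithelial-like cells had 330 CPM in library 2, against 251 CPM in library 1, a gap smaller than in stroma or muscle. Blood endothelial-like cells were near the bottom of the order, at 15.8 CPM in library 2 and 12.8 in library 1. The T or NK cell-like class was also low, with 30.5 CPM in library 2, against 8.75 CPM in library 1. Over the 23 class-by-library sums of ESR1, the values from rank 12 (lymphatic endothelial-like cells of library 2, 77.6 CPM) to rank 19 (T or NK cell-like cells of library 2) each overlapped the next one, and rank 20 (plasma cell-like cells of library 1, 27.1 CPM) lay above blood endothelial-like cells of library 2 beyond the intervals.

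Among the named classes PGR was highest in stroma in both libraries, by a smaller margin in library 1. Stromal fibroblast-like cells had 363 CPM in library 2 and 120 in library 1, and the stromal cells of library 2 stood apart from every other sum. The next in order were the 2 library 1 clusters outside the classes, cluster 1 (a stroma led by CRABP1, 151 CPM) and cluster 11 (led by SULT1E1, ACTG2 and CNN1, 150 CPM), whose intervals overlapped. Muscle-like cells had 104 CPM in library 2, against 69.5 CPM in library 1. In epithelial-like cells the order of the libraries was the other way round, with 35.6 CPM in library 2 and 69.6 in library 1. Ciliated cells of library 2 had 39.1 CPM, overlapping the other epithelial-like cells of that library. Every endothelial and immune class lay at or below 8.95 CPM in both libraries.

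NCOA1 was spread over all classes. In library 2 its highest sums were T or NK cell-like cells (330 CPM), B cell-like cells (285 CPM) and stromal fibroblast-like cells (266 CPM), each overlapping the next, and its lowest was 104 CPM in lymphatic endothelial-like cells. In library 1 its levels ran only up to 67.1 CPM, in T or NK cell-like cells, and down to 13.1 CPM in plasma cell-like cells. All 12 sums of library 2 therefore lay above all 11 sums of library 1. From rank 5, the macrophage, monocyte or dendritic cell-like cells of library 2, to rank 22 neighbouring NCOA1 sums overlapped.

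FKBP5 was highest in stromal fibroblast-like cells of library 2, with 411 CPM against 137 CPM in those of library 1. Epithelial-like cells followed, with 279 CPM in library 2, against 102 CPM in library 1. T or NK cell-like cells had 152 CPM in library 2 and 67.1 in library 1. Muscle-like cells had little, with 86.7 CPM in library 2, against 59.5 CPM in library 1, and blood endothelial-like cells had 37.2 CPM in library 2 and 15.7 in library 1. ESR1 and FKBP5 thus differed in muscle, where ESR1 stood second of 23 sums and FKBP5 twelfth in library 2.

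**Figure D1:**
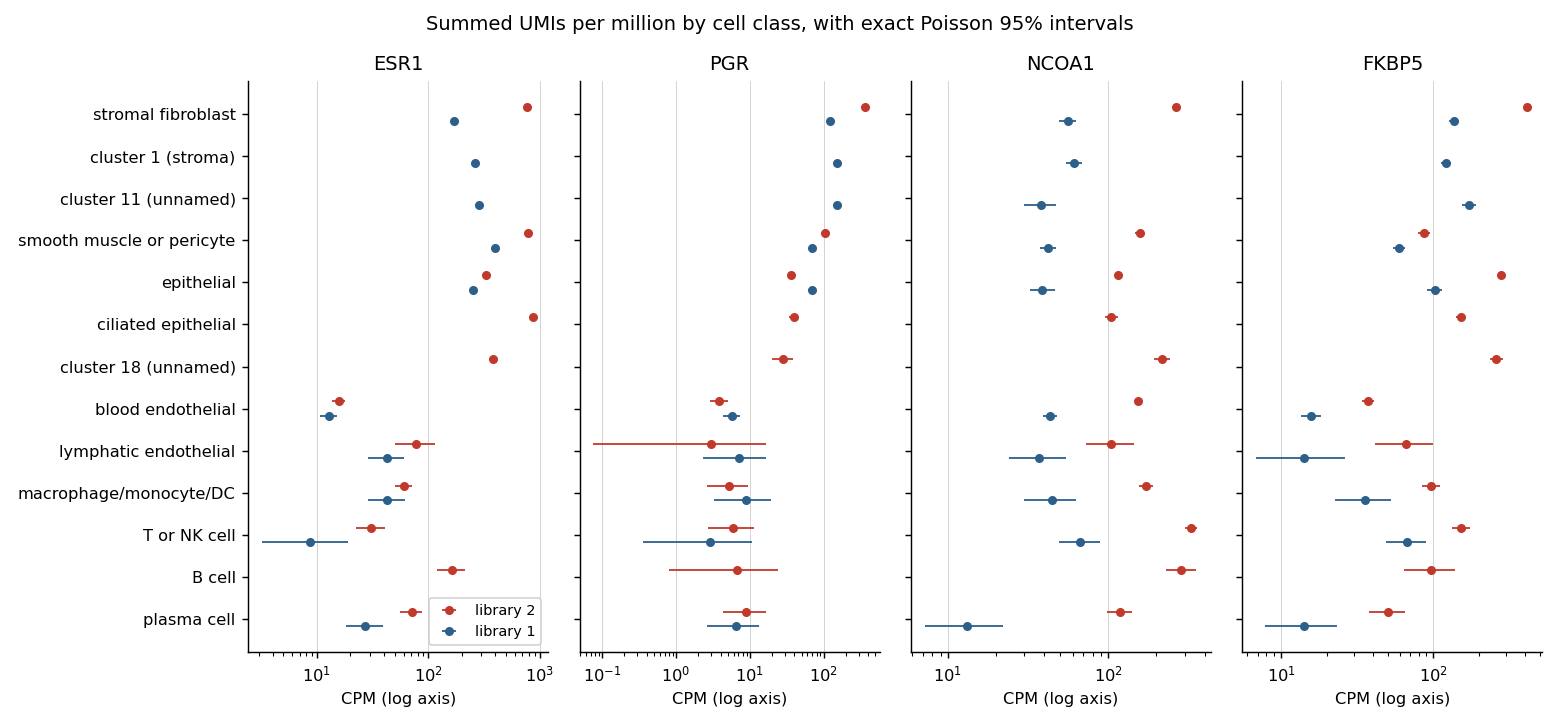
Level of each gene (CPM, log axis) by cell class, with exact Poisson 95% intervals; red is library 2 and blue is library 1. PGR peaks in stroma (363 CPM in library 2) and is at or below 8.95 CPM in the endothelial and immune classes, while NCOA1 of library 2 lies above NCOA1 of library 1 everywhere.

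The share of cells with a UMI followed the levels but also the depth of the cells. In stromal fibroblast-like cells, ESR1 was detected in 88.1% of 2163 cells in library 2 and 46.6% of 1079 cells in library 1, and PGR in 71.3% and 38.3% of the same cells in library 2 and library 1. Epithelial-like cells held ESR1 in 69.2% of 3112 cells in library 2 and 69.0% of 229 cells in library 1, at median depths of 4607 and 7173 UMIs. After each cell was thinned to 1000 UMIs, which left out shallower cells, the ESR1 shares were 28.9% in library 2 and 22.0% in library 1. The PGR share of epithelial-like cells was 18.5% in library 2 and 40.6% in library 1, and after thinning 2.99% of 2944 such cells in library 2 and 6% of 200 in library 1 kept a PGR UMI. Free RNA in droplets sets a floor to such shares. PGR was detected in 1.72% of blood endothelial-like cells in library 2 and 2.11% in library 1 (median depths 4306 and 3027 UMIs). Among the T or NK cell-like cells it was detected in 1.08% in library 2 and 0.421% in library 1 (1667 and 1318 UMIs). ESR1 was detected in 6.62% of blood endothelial-like cells in library 2 and 4.30% in library 1. The shallower T or NK cell-like cells held it in 3.96% in library 2 and 1.26% in library 1. At 1000 UMIs per cell the endothelial ESR1 shares were 1.59% in library 2 and 1.26% in library 1, at or below the T or NK cell-like shares of 2.65% and 1.34%. Cells of both classes under 1000 UMIs were left out of these shares. Whether the endothelial ESR1 UMIs came from free RNA was not tested.

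The share of cells with several UMIs also depends on depth. At least 3 ESR1 UMIs were found in 84.2% of ciliated, 52.9% of stromal and 46.7% of muscle-like cells of library 2, and in 6.58% of stromal and 18.0% of muscle-like cells of library 1. At least 3 PGR UMIs were found in 25.2% of stromal cells in library 2 and 2.50% in library 1. In epithelial-like cells the PGR figures were 1.35% in library 2 and 13.1% in library 1, where cells were deeper (medians of 4607 UMIs in library 2 and 7173 in library 1). This gap was wider than that of the epithelial PGR levels, which were 1.96-fold higher in library 1, and these shares were not thinned. B cell-like cells of library 2 gave 162 CPM of ESR1, but its 49 UMIs came from 14 of 126 cells, and 1 cell held 15 of them.

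**Figure D2:**
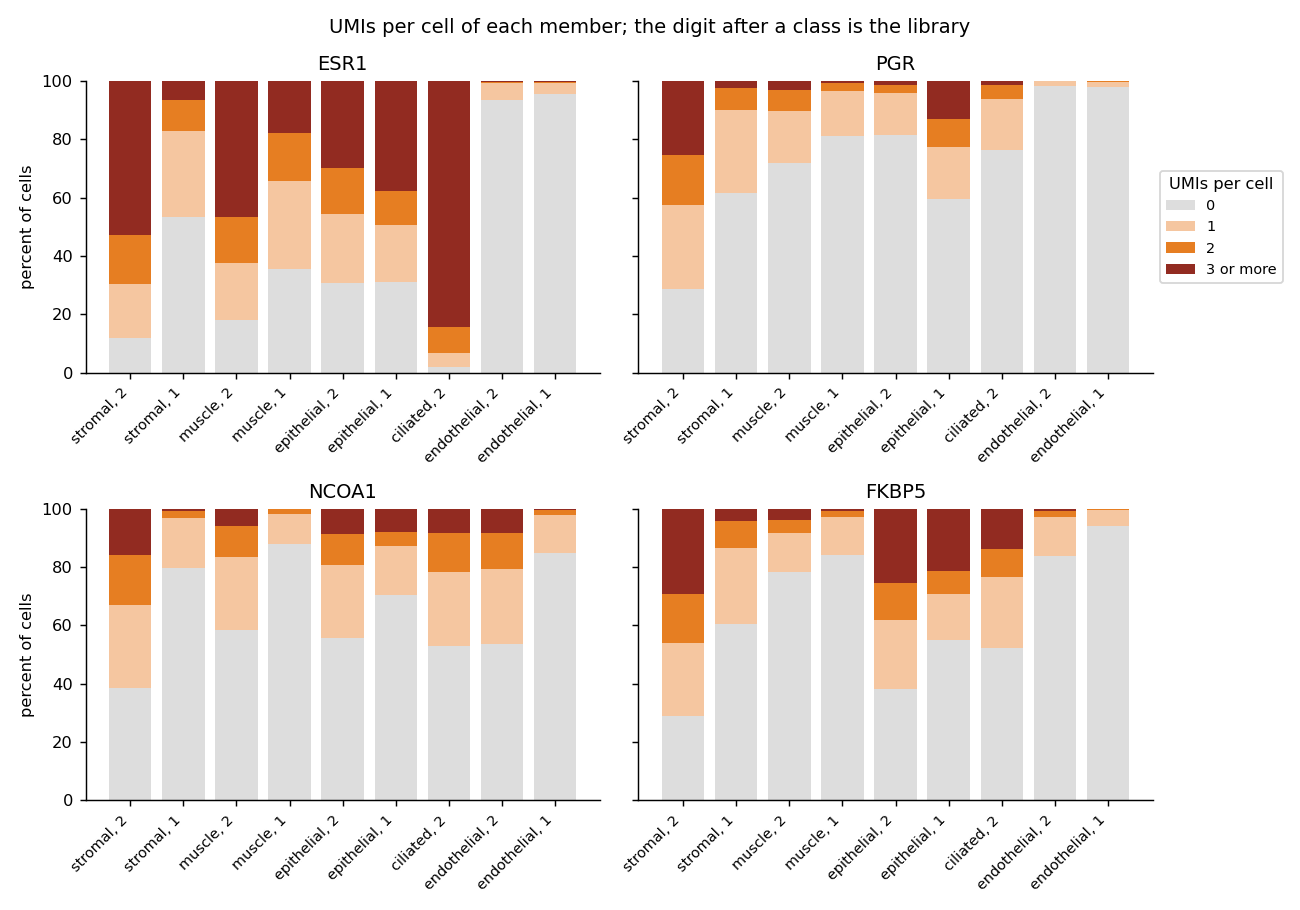
Percent of cells with 0, 1, 2 or at least 3 UMIs of each gene, by class and library (the digit after the class), without thinning. Stromal cells of library 2 hold at least 3 PGR UMIs in 25.2% of cells and those of library 1 in 2.50%; epithelial cells are the other way round, at 1.35% in library 2 and 13.1% in the deeper cells of library 1.

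The libraries were compared class by class in the 8 classes with at least 50 cells in each, and a ratio past 2-fold was counted, with no test. Ratios are log2 of library 2 over library 1. In stromal fibroblast-like cells all 4 genes were more than 2-fold higher in library 2, where 27.4% of 8643 symbols were, while 12.9% were more than 2-fold lower. The ESR1 ratio was 2.16 (95% interval 2.06 to 2.27), the PGR ratio 1.60 (1.47 to 1.73), the NCOA1 ratio 2.25 (2.06 to 2.43) and the FKBP5 ratio 1.59 (1.47 to 1.71), beside a median of 0.13 over all symbols. Clusters 25 and 26 made up this class in library 2 and cluster 0 in library 1, and the stroma kept apart as cluster 1 had ESR1 at 264, PGR at 151, NCOA1 at 61.3 and FKBP5 at 122 CPM. Across the 4 pairs of stromal clusters, cluster 1 included, all 4 genes stayed past 2-fold, with ESR1 between 1.42 and 2.27 and PGR between 1.13 and 1.71.

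In epithelial-like cells the receptors parted. PGR was lower in library 2, at a ratio of -0.97 (-1.18 to -0.75), just inside 2-fold, and ESR1 was slightly higher, at 0.39 (0.29 to 0.50). NCOA1 was more than 2-fold higher, at 1.56 (1.30 to 1.83), and so was FKBP5, at 1.45 (1.29 to 1.62). By cluster of library 2 over cluster 15, the epithelial cluster of library 1, NCOA1 stayed past 2-fold in 4 of 4 pairs, but FKBP5 in 2 of 4, from -0.03 for cluster 19 (-0.21 to 0.15) and 0.79 for cluster 30 to 1.44 for cluster 23 and 2.58 for cluster 20. These 2 of 4 genes compare with 21.7% of 8728 symbols more than 2-fold higher and 24.5% more than 2-fold lower, and the median over all symbols was -0.16. TMM scaling added 0.32 to every epithelial ratio and gave -0.65 for PGR. With ribosomal protein genes left out of the total the PGR ratio was -1.25, past 2-fold, and the ESR1 ratio was 0.11.

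Muscle-like cells differed less for PGR and FKBP5. ESR1 was 1.99-fold higher in library 2 (log2 ratio 1.00, 0.93 to 1.06), just inside 2-fold and between 0.91 and 1.08 under the alternatives, and NCOA1 was higher at 1.89 (1.70 to 2.08). The PGR ratio was 0.58 (0.41 to 0.75) and the FKBP5 ratio 0.54 (0.35 to 0.73). NCOA1 alone passed 2-fold, beside 22.0% of 8418 symbols more than 2-fold higher and 10.6% more than 2-fold lower. The direction for PGR and FKBP5 in muscle hung on how the class was drawn, since with each library clustered on its own the ratios were -0.16 and -0.62, and FKBP5 was also at -0.16 at a finer resolution of 2.0.

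In the endothelial and immune classes NCOA1 and FKBP5 were more than 2-fold higher in library 2 in 5 of 5 classes, but with each cell thinned to 1000 UMIs some of these calls were lost. FKBP5 was then 0.91 in T or NK cell-like, 0.93 in macrophage, monocyte or dendritic cell-like and 0.56 in plasma cell-like cells, and NCOA1 was 0.42 in lymphatic endothelial-like cells. Among cluster pairs, FKBP5 was inside 2-fold for T or NK cell-like cluster 28 over 8 (0.95), blood endothelial cluster 24 over 3 (0.80) and macrophage cluster 10 over 9 (0.76), while NCOA1 passed 2-fold in each pair of these classes. The blood endothelial ratios were 1.82 for NCOA1 and 1.24 for FKBP5, where 22.6% of symbols were more than 2-fold higher. Those in lymphatic endothelial-like cells were 1.50 and 2.21 (20.3% of symbols), and those in macrophage, monocyte or dendritic cell-like cells 1.96 and 1.44 (18.0% of symbols). T or NK cell-like cells gave 2.30 and 1.18 (22.3% of symbols), and plasma cell-like cells 3.17 and 1.84 (26.4% of symbols). ESR1 also passed 2-fold in T or NK cell-like cells, on 46 UMIs in library 2 and 6 in library 1, and in plasma cell-like cells, on 79 UMIs in library 2 and 29 in library 1. Both calls were lost under an alternative, the T or NK cell ratio of 1.80 being 0.22 with called doublets kept and the plasma cell ratio of 1.38 being 0.56 after thinning. PGR had too few UMIs for a ratio in 2 of these classes. Its T or NK cell-like sums of 9 UMIs in library 2 and 2 in library 1 gave 1.03 (-1.24 to 4.28), and its lymphatic sums of 1 and 5 UMIs gave -1.25 (-6.82 to 1.91). With counts under 3 set to 3, PGR passed 2-fold in 1 of 8 classes, ESR1 in 3, FKBP5 in 7 and NCOA1 in 8, all toward library 2.

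**Figure D3:**
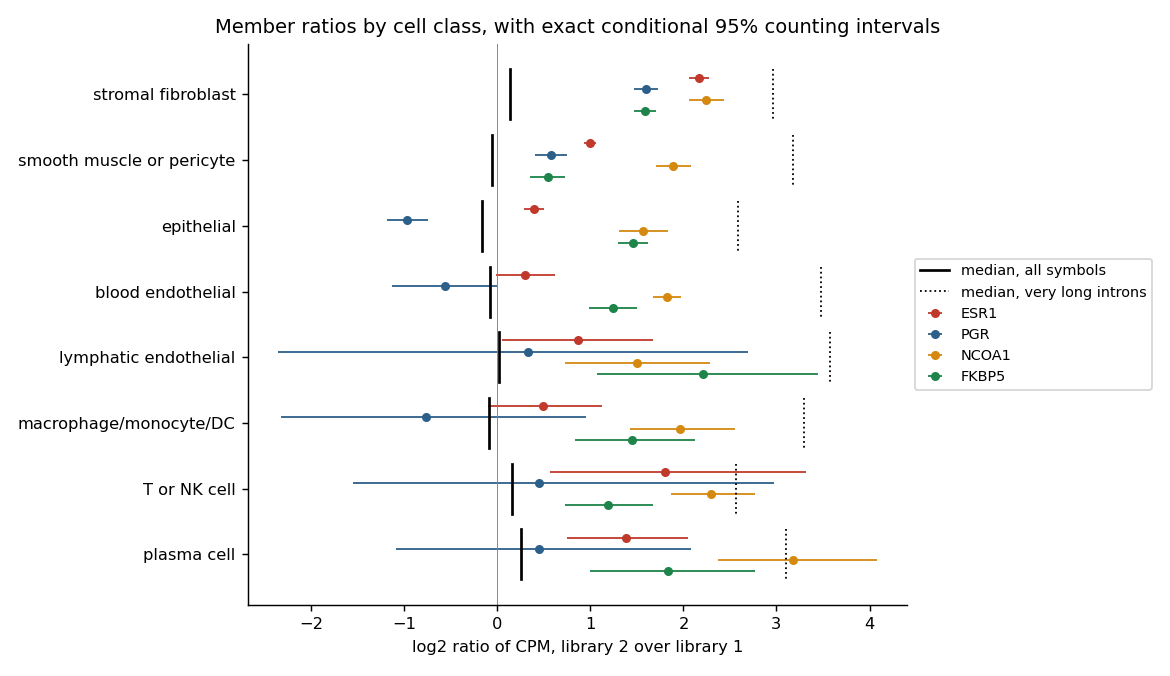
Log2 ratio of CPM, library 2 over library 1, of each gene in the 8 classes, with exact conditional 95% intervals and counts under 3 set to 3; the solid bar is the median of all symbols and the dotted bar that of genes with very long introns. PGR lies at 1.60 in stroma and -0.97 in epithelium, and NCOA1 lies right of 1 in all 8 classes.

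Other properties of the libraries moved with these ratios. Of 14 measured genes with very long introns, such as AUTS2 and MAGI1, 13 were more than 2-fold higher in stromal cells of library 2, with a median ratio of 2.96. The same list gave 14 of 14 in epithelial-like cells (median 2.58), 13 of 14 in muscle-like cells (3.17) and 13 of 14 in blood endothelial-like cells (3.48), and no member was more than 2-fold lower in these classes. Of all symbols, 27.4% were more than 2-fold higher in stromal, 21.7% in epithelial-like, 22.0% in muscle-like and 22.6% in blood endothelial-like cells. Ribosomal protein genes took 4.86% of stromal UMIs in library 2 and 13.8% in library 1, and 5.78% of epithelial UMIs in library 2 and 22.2% in library 1. Immediate early and dissociation stress genes had median ratios of 1.33 in stromal, 2.16 in epithelial and 1.71 in muscle-like cells, with 9, 13 and 10 of 15 more than 2-fold higher. In blood endothelial-like cells 3 of these 15 were (median 0.56), in plasma cell-like cells 8 (1.06) and in lymphatic endothelial-like cells 7 (0.67). The shares of all symbols higher there were 22.6%, 26.4% and 20.3%. In T or NK cell-like cells 0 of 15 were higher and 5 more than 2-fold lower (-0.24), beside 9.14% of all symbols lower. In macrophage, monocyte or dendritic cell-like cells 0 of 15 were higher (-0.32). Epithelial-like cells also differed in summed cell cycle markers (10.4 CPM in library 2, 332 CPM in library 1) and summed ciliated markers (22.5 and 493 CPM). For all 4 genes and for the list genes named below, the part of these properties in the ratios was not tested.

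Within classes, ESR1 and FKBP5 varied from cluster to cluster more than PGR did in the epithelium. Among 4 epithelial clusters of library 2, cluster 20 (led by SAL1, a salivary lipocalin) had 686 CPM of ESR1 and 611 CPM of FKBP5. Cluster 19 (led by SLPI, UABP-2 and SULT2A1) had 161 CPM of ESR1 and 100.0 CPM of FKBP5. Cluster 23 (led by CDO1) had 273 CPM of ESR1 and 277 CPM of FKBP5, and cluster 30, with 47 cells led by UPTI, had 275 CPM of ESR1 and 176 CPM of FKBP5. Their PGR levels were 44.2, 28.6, 39.1 and 57.9 CPM in the order 20, 19, 23 and 30, all below the 69.6 CPM of cluster 15, the only epithelial cluster of library 1. The FKBP5 level of cluster 15 was 102 CPM, within the interval of cluster 19. Cluster 15 had 251 CPM of ESR1, so the ESR1 ratio against it was 1.45 for cluster 20 and -0.65 for cluster 19. Median depth differed between these clusters, with 2735 UMIs in cluster 20 and 5499 in cluster 19.

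Muscle-like clusters paired across the libraries. Cluster 21 of library 2 and cluster 6 of library 1, which shared CCL19, TFPI2 and EDNRB among their leading genes, had 127 and 86.6 CPM of PGR and 113 and 76.5 CPM of FKBP5. Cluster 29 of library 2 and cluster 7 of library 1, which shared MGP and ITIH4, had 42.7 and 25.2 CPM of PGR and 16.2 and 15.7 CPM of FKBP5. ESR1 was high in both kinds, at 882 and 417 CPM in clusters 21 and 6 and at 531 and 361 CPM in clusters 29 and 7. The first kind of cluster thus had more PGR and FKBP5 than the second in each library. A further muscle-like cluster of library 1, cluster 2 with 53 cells, was in neither pair and had 224 CPM of ESR1, 95.4 CPM of PGR and 84.4 CPM of FKBP5.

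**Figure D4:**
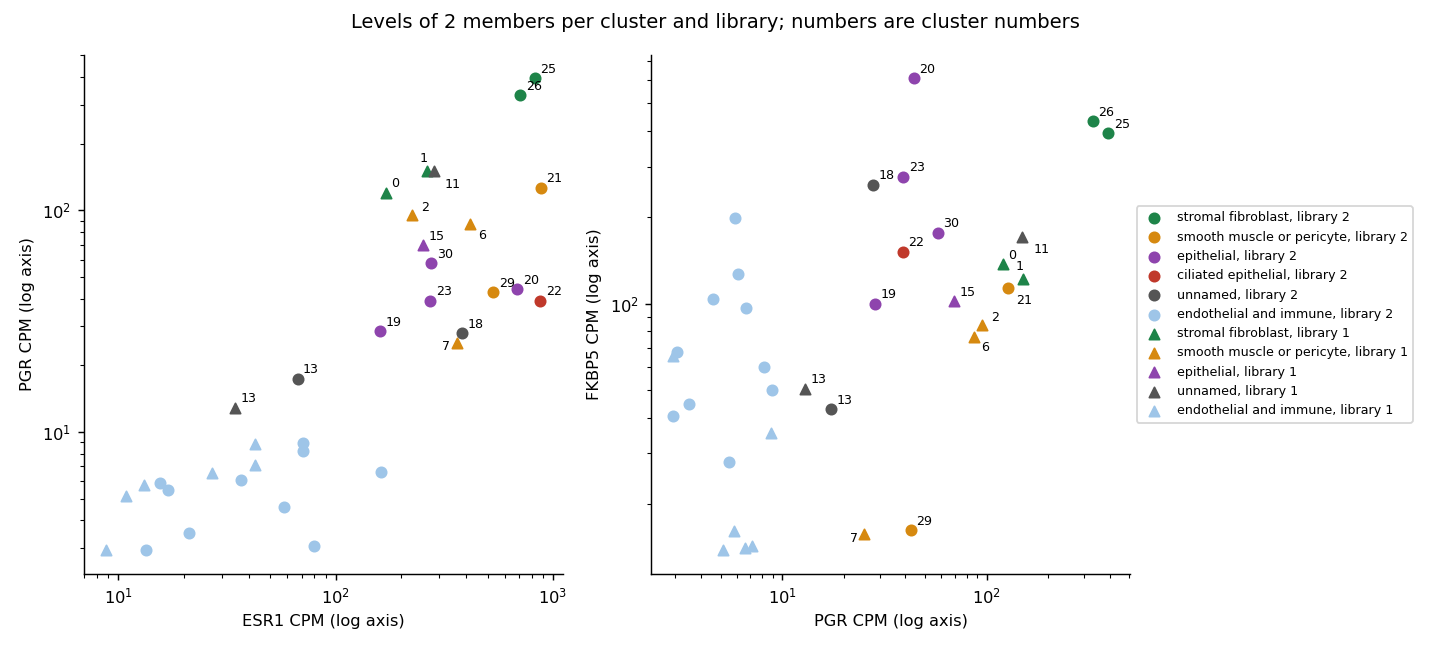
Level of PGR against ESR1 (left) and of FKBP5 against PGR (right) in each cluster and library, in CPM on log axes; circles are library 2 and triangles library 1. Muscle-like clusters 29 and 7 fall below clusters 21 and 6 in PGR and FKBP5, and epithelial clusters of library 2 spread from 161 to 686 CPM in ESR1.

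The small ciliated group of library 1 was found only at the finer resolution of 2.0 or when that library was clustered alone. Its 36 cells held 87 ESR1 UMIs, or 377 CPM, in 28 cells, and 13 PGR UMIs, or 56.3 CPM. At that resolution the other epithelial-like cells had 337 CPM of ESR1 in library 2 and 242 CPM in library 1, and 36.4 and 70.6 CPM of PGR, so the PGR gap was of the same size without the ciliated cells. Unnamed cluster 18 of library 2, of 1211 shallow barcodes (median 1072 UMIs, 2.68% ribosomal), had 383 CPM of ESR1, 27.9 of PGR, 217 of NCOA1 and 259 of FKBP5.

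ESR1 and PGR were found together in many stromal cells of both libraries. In library 2, 1391 of 2163 stromal fibroblast-like cells (64.3%) held both, 1.02 times the product of the 2 shares, and in library 1, 217 of 1079 cells (20.1%) held both, 1.13 times. PGR was detected in 73.0% of ESR1-positive and 59.1% of ESR1-negative stromal cells of library 2, and in 43.1% and 34.0% of those of library 1. ESR1-positive cells were also the deeper ones, with medians of 4618 against 3718 UMIs in library 2 and 4909 against 3478 UMIs in library 1. With the expected number summed over 4 bins of depth, the stromal figures were 1.02 in library 2 and 1.04 in library 1. Where most cells hold ESR1, as in stroma of library 2, such a figure cannot rise far above 1. After thinning, which lowers the shares, the stromal figures were higher in both libraries, as given in the last section.

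In epithelial-like cells 479 of 3112 cells of library 2 held both receptors, 1.20 times the expected number, and 83 of 229 cells of library 1, 1.29 times. PGR was detected in 22.2% of ESR1-positive and 10.1% of ESR1-negative epithelial cells of library 2, and in 52.5% and 14.1% of those of library 1. Here too the ESR1-positive cells were deeper, with medians of 5789 against 3440 UMIs in library 2 and 11511 against 1809 UMIs in library 1. Within the 4 depth bins the figures were 1.04 in library 2 and 1.01 in library 1. Muscle-like cells held both in 323 cells of library 2, at 1.06 times the expected number before and after the split by depth, and in 324 cells of library 1, at 1.19 times before and 1.14 times after it. Among PGR-positive cells, ESR1 was detected in 90.2% in stroma, 86.6% in muscle and 83.2% in epithelium of library 2, and in 52.5%, 76.6% and 89.2% of library 1.

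**Figure D5:**
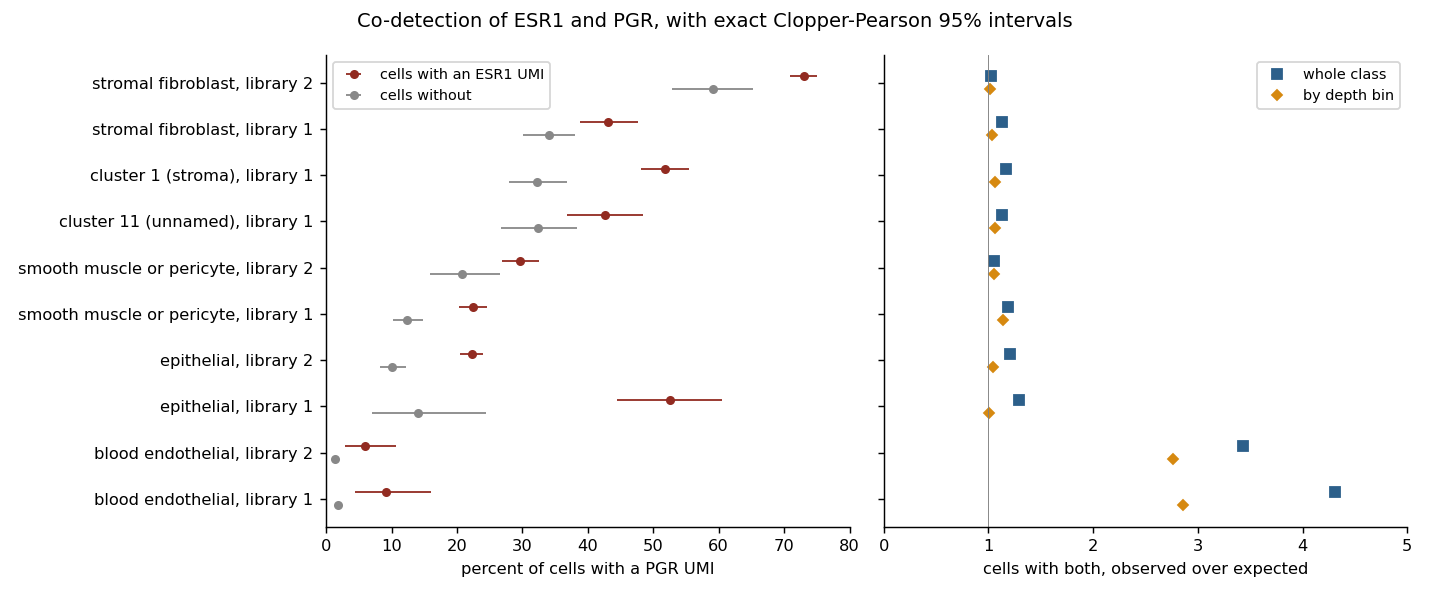
Left, percent of cells with a PGR UMI among cells with and without an ESR1 UMI, with exact Clopper-Pearson 95% intervals; right, cells with both over the number expected from the separate shares, over the whole class (squares) and summed over 4 depth bins (diamonds). Epithelial figures of 1.20 in library 2 and 1.29 in library 1 become 1.04 and 1.01 with the split by depth; the endothelial figures rest on 10 cells with both in each library.

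Of the 5 other pairs, PGR with FKBP5 in muscle-like cells lay farthest above its expected number among stromal, epithelial and muscle-like cells once depth was split. It was found in 133 cells of library 2, 1.62 times the expected number by depth bin, and in 107 cells of library 1, 1.52 times. FKBP5 was detected in 35.7% of PGR-positive and 16.1% of PGR-negative muscle-like cells of library 2, and in 25.3% and 13.8% of those of library 1. The clusters within the class differ in both genes in the same direction, as given above. In stromal and epithelial-like cells the PGR and FKBP5 pair lay between 1.04 and 1.08 in both libraries. A larger share of those cells than of muscle-like cells held FKBP5, and the figure cannot rise as far where a gene is widely detected. The order of classes and pairs by this figure therefore also depends on the detection shares.

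Lists of genes around the receptors were set beside all symbols, of which 27.4% were more than 2-fold higher and 12.9% lower in stromal, 21.7% higher and 24.5% lower in epithelial-like and 22.0% higher and 10.6% lower in muscle-like cells. The all-symbol medians were 0.13 in stromal, -0.16 in epithelial-like and -0.06 in muscle-like cells. Among other steroid receptors, 3 of 8 measured genes were more than 2-fold higher and 1 was more than 2-fold lower in stromal cells of library 2 (median 0.54), 2 of 7 were higher in epithelial-like cells (0.34) and 3 of 7 in muscle-like cells (0.54). With so few genes, the stromal and epithelial shares are near the background, and no share was tested against it. In muscle, ESRRG, an orphan receptor related to the oestrogen receptors, had 120 CPM in library 2, against 1.35 CPM in library 1, and NR3C2, the mineralocorticoid receptor, had 85.6 CPM in library 2 and 20.1 in library 1. Genes with very long introns had a median ratio of 3.17 in muscle-like cells, and whether this bears on ESRRG and NR3C2 was not tested. The membrane progesterone-binding protein gene PGRMC1 had 1040 CPM in epithelial-like cells of library 2 and 647 CPM in library 1, while PGRMC2 had 83.3 CPM in library 2, against 159 CPM in library 1.

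Coregulators other than NCOA1 did not share its ratio as a list. Of 10 measured genes, 3 were more than 2-fold higher in stromal cells of library 2, 2 in muscle-like cells, and 2 higher and 2 lower in epithelial-like cells, with medians of 0.20, -0.02 and -0.18. CREBBP, a histone acetyltransferase that binds NCOA1, was higher in epithelial-like cells (197 CPM in library 2, 63.1 CPM in library 1) and in stromal cells (262 CPM in library 2, 113 CPM in library 1). NCOA4 was lower in epithelial-like cells, at 29.7 CPM in library 2 and 81.4 in library 1, and so was the arginine methyltransferase gene PRMT1, at 80.3 CPM in library 2, against 205 CPM in library 1. Receptor chaperones other than FKBP5 had medians of -0.11 in stromal, -0.34 in epithelial and -0.24 in muscle-like cells, with 1, 1 and 0 of 8 more than 2-fold higher and 0, 3 and 0 lower. HSP90AB1, the constitutive HSP90 gene, had 390 CPM in epithelial-like cells of library 2 and 1775 CPM in library 1, and PPID, a cyclophilin that binds HSP90 like FKBP5, had 27.8 CPM in library 2 and 94.2 in library 1.

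Genes known to respond to the hormones, mostly from human and mouse, did not move together. Of 16 measured oestrogen-responsive genes in epithelial-like cells, 4 were more than 2-fold higher and 8 more than 2-fold lower in library 2 (median -0.58), and in stromal cells 2 of 14 were higher and 2 lower (-0.25). In muscle-like cells 5 of 13 were higher and 1 lower (0.37). The cell cycle gene CCND1 was lower in library 2 in all 3 classes. Its levels were 46.4 CPM in library 2, against 130 CPM in library 1 in epithelial-like cells, 17.2 and 60.9 CPM in stromal cells and 103 and 454 CPM in muscle-like cells. Summed cell cycle markers of epithelial-like cells differed in the same direction, as given above. PDZK1, a scaffold protein gene, had 6.83 CPM in epithelial-like cells of library 2 and 275 CPM in library 1, and the growth factor gene IGF1 had 314 CPM in stromal cells of library 2 and 903 CPM in library 1.

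Progesterone-responsive genes were split as well. In epithelial-like cells 3 of 10 were more than 2-fold higher and 4 more than 2-fold lower (median -0.33), in stromal cells 4 higher and 2 lower (0.0011) and in muscle-like cells 2 higher and 2 lower (-0.04). FOXO1, a forkhead factor of the progesterone response, had 589 CPM in epithelial-like cells of library 2 and 30.5 CPM in library 1, and 189 CPM in stromal cells of library 2 and 77.7 CPM in library 1. IHH, an epithelial signal downstream of PGR in mouse, had 32.6 CPM in epithelial-like cells of library 2 and 88.3 CPM in library 1. In stroma HOXA10 had 404 CPM in library 2 and 864 in library 1, and in muscle-like cells HAND2, a factor that curbs oestrogen signalling in mouse stroma, had 32.1 CPM in library 2, against 96.2 CPM in library 1.

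A further list held genes known to respond to glucocorticoids, as FKBP5 does. Of 7 measured, 6 were more than 2-fold higher in epithelial-like cells of library 2 (median 2.37), 4 in stromal cells (1.55) and 3 in muscle-like cells (0.80), and none was more than 2-fold lower in these 3 classes, while 1 of 7 was in lymphatic endothelial and in plasma cell-like cells. The shares of all symbols higher were 21.7%, 27.4% and 22.0% in the first 3 classes and 18.0% to 26.4% in the others, and no difference between lists was tested. PDK4, a kinase of glucose metabolism, had 588 CPM in epithelial-like cells of library 2 and 9.01 CPM in library 1. CEBPD, a transcription factor, had 1066 CPM in stromal cells of library 2 and 27.1 CPM in library 1, and 1063 and 28.1 CPM in muscle-like cells. TSC22D3, a glucocorticoid-induced leucine zipper gene named here after its values were seen, went the other way in stromal cells, with 133 CPM in library 2 and 218 in library 1. KLF9 stands on both this list and the progesterone list. Among 6 measured steroid-converting enzymes, 1 was more than 2-fold higher and 3 more than 2-fold lower in epithelial-like cells (median -0.60), 2 higher and 1 lower in stromal cells (-0.08) and 1 higher in muscle-like cells (-0.32). SULT2A1, a hydroxysteroid sulfotransferase, had 5155 UMIs in epithelial-like cells of library 2 and 0 in library 1. With 3 UMIs set for the class in library 1 this is 254-fold higher, a value that depends on that floor. HSD17B4 had 174 CPM in stromal cells of library 2 and 55.7 CPM in library 1.

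Symbols whose levels followed each gene best were sought over 18 class-by-library sums, with cluster 1 counted as stroma, among 5801 symbols reaching 50 CPM, by Pearson's r of log2(CPM + 20). The sums share 2 libraries and their depth, so r is a description. ESR1 was followed best by BMPR1A, a receptor of bone morphogenetic proteins (r = 0.95), CACNA1D, a calcium channel subunit (0.92), and DSTN, the actin-severing protein destrin (0.88). PGR was followed best by CNTN4, a cell adhesion molecule (0.97), NECAB3 (0.91) and PTN, the growth factor pleiotrophin (0.90). For NCOA1 they were MTPN (0.96), CENPP (0.95) and COG6, a Golgi tethering subunit (0.94), and for FKBP5 they were SIAH2, a ubiquitin ligase (0.91), JAZF1 (0.90) and PPM1L, a phosphatase (0.85). Between the 4 genes themselves ESR1 and PGR had r = 0.81, ESR1 and FKBP5 0.67, and PGR and NCOA1 0.11.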

How the data were processed

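Per the file headers, the authors made the 2 deposited tables of UMI counts with Cell Ranger 6.1.0, whereas version 2.1.1 is named in the submitters' processing notes. Not given in the sources used here were a genome build and whether reads in introns were counted. All values tested as whole numbers summing to 87514969 UMIs in library 2 and 45388759 in library 1.

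A barcode needed 500 UMIs and 200 genes, and doublets called by Scrublet in scanpy 1.11.5 were removed (16.0% in library 2, 11.1% in library 1). Of 26881 genes, 10753 had a symbol and 0 a mitochondrial name, so no mitochondrial filter was applied. After scaling each cell to 10000 UMIs and taking logs, both libraries were clustered together without integration, on 2000 variable genes (0 of the 4 genes were among them), 30 components, 15 neighbours and Leiden resolution 1.0 (igraph 0.11.9, seed 1). A class needed at least 3 markers with a mean log2 fold of 0.5 against other cells of the same library, with a pseudocount of 20 CPM, and a margin of 0.25; the rule for scoring was set with the data in view, and other rebuilt names could move the shares. Clusters led by cell cycle genes, or shallow without an own marker in the lead, stayed unnamed. Cluster 1 was kept apart because its 10 leading genes held WT1, a mesothelial marker, and no stromal one.

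UMIs were summed per class and library. CPM has exact Poisson, shares have exact Clopper-Pearson and log2 ratios exact conditional binomial 95% intervals, with counts under 3 set to 3 in ratios. UMIs of 1 cell or 1 sow are not independent replicates. The genes and the 9 lists (96 of 144 entries had a symbol; members needed 10 UMIs) were chosen with earlier results of these data known. Named list genes are among the 3 largest absolute ratios at 50 CPM or more. Ratios and thinning were tested on simulated data with known answers. These data held counting error only, so they do not show how cells or sows vary. Alternatives were a stricter filter (1000 UMIs, 500 genes), doublets kept, the 4 genes allowed in clustering, separate clustering, resolutions 0.5 and 2.0, TMM scaling (edgeR 4.0.16), equal cell weights, thinning to 1000 UMIs, list minimums of 1 and 50 UMIs and other likeness measures, and 6 added after seeing the data.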

Additional observations from a re-analysis of the deposited data

Results flagged for a closer look

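With both libraries clustered together, the ratio of library 2 over library 1 of PGR took opposite signs in 4 classes whose counting intervals lay on 1 side of 0. Its log2 ratio was 1.60 in stromal fibroblast-like cells and 0.58 in smooth muscle or pericyte-like cells, and it was -0.97 in epithelial-like cells and -0.57 in blood endothelial-like cells. With 1 library on each side the difference between classes was not tested. The epithelial sign held in each of 4 cluster pairs, all over cluster 15, at -1.28 to -0.27. The interval of the last, for cluster 30, spanned 0 (-0.99 to 0.38). Under 11 of 11 alternatives the epithelial sign also held, at -1.25 to -0.65, and the stromal sign held under 12 of 12, at 1.26 to 1.77. Across 6 cluster pairs the muscle ratio ran from -1.16 to 2.33. It held its sign under 10 of 11 alternatives and was -0.16 with each library clustered on its own. FKBP5 also split in sign under that setting, at -0.62 in muscle-like cells, against 1.60 in stromal and 1.61 in epithelial-like cells. The blood endothelial interval, -1.13 to -0.007, nearly reached 0. PGR levels there, 3.84 CPM in library 2 and 5.69 in library 1, overlapped those of T or NK cell-like cells (5.96 and 2.92). Summed stromal markers in blood endothelial-like cells were 497 CPM in library 2 and 1858 in library 1, and their part was not tested. The blood endothelial ratio ran from -0.99 to 0.09 across 6 cluster pairs and rests on 53 PGR UMIs in library 2 and 59 in library 1. They were found in 1.72% of cells in library 2 and 2.11% in library 1.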

How the results depend on the processing

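No paired analysis was possible because each group held 1 library, and no replicate could be left out for the same reason. Values are log2 ratios of library 2 over library 1 unless said otherwise. No value counted as past 2-fold in stromal or epithelial-like cells changed sign under these alternatives. In stromal cells ESR1 was 1.92 with doublets kept, 1.99 with separate clustering, 1.79 at resolution 0.5, 2.05 at 2.0, 2.02 without ribosomal genes in the total, 1.80 with cluster 1 pooled in and 1.54 with cluster 1 in place of cluster 0. Stromal PGR was 1.30 with doublets kept, 1.42 at resolution 0.5, 1.77 thinned, 1.45 without ribosomal genes, 1.41 with cluster 1 pooled in and 1.26 with it in place of cluster 0. Stromal FKBP5 was 1.33 with doublets kept, 1.44 without ribosomal genes and 1.76 with cluster 1 in place of cluster 0, and stromal NCOA1 was 2.49 thinned. In epithelial-like cells ESR1 was 0.61 with separate clustering, 0.75 thinned, 0.82 with equal cell weights, 0.71 with TMM and 0.11 without ribosomal genes. Epithelial PGR was -0.65 with TMM and -1.25 without ribosomal genes, NCOA1 1.30 thinned, 1.88 with TMM and 1.29 without ribosomal genes, and FKBP5 1.88 thinned, 2.03 with equal weights, 1.77 with TMM and 1.18 without ribosomal genes. ESR1 and PGR together, over the expected number, were 1.04 (library 2) and 1.01 (library 1) by depth bin in epithelium, and 1.13 (library 2) and 1.34 (library 1) thinned in stroma. The cause was not tested. Of the 12 likeness genes, those still among the first 3 by Spearman's rho were 2 of 3 for ESR1 and PGR and 1 of 3 for NCOA1 and FKBP5. PGR ratios in immune and lymphatic cells rest on at most 11 UMIs a side, and ratios there are limited by depth. Library, sow and processing cannot be told apart in this design.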
